A study of Mus musculus with 10 samples.

Results

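Integrin, laminin and hemidesmosome genes were followed in mouse (Mus musculus) tracheal epithelial organoids, multicellular structures grown in gel from basal cells, which renew the airway lining. The genes were the rows of the deposited table whose symbols name an integrin alpha subunit, an integrin beta subunit or a laminin chain, plus Col17a1, Dst, Plec, Cd151, Col4a1, Col4a2, Col7a1, Fn1, Nid1 and Hspg2. The rule found 44 of the 22457 genes listed, and it used no measured value. The family genes Lamc3, Itgax and Itgad had no row and no value here. RNA-seq covered 3 libraries labelled Ctrl and 3 labelled M3-CKO, described by the series title as knocked out for Mettl3, the enzyme that methylates adenosine in messenger RNA (m6A). All organoids were harvested on day 14. Per the labels' protocols, both groups grew in Matrigel, a mouse basement membrane extract rich in laminin, collagen IV and nidogen, in medium with epidermal growth factor, retinoic acid, and the inhibitors A83-01 and DMH-1 of TGF-beta and BMP receptors. A serum-free differentiation medium is also described. The sources used here do not give the strain, age or sex of the mice, the part of Mettl3 that was removed or what drove its removal.

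Basal cells of stratified and pseudostratified epithelia hold on to the basement membrane through hemidesmosomes. In these, the integrin formed by the alpha6 and beta4 subunits and the transmembrane collagen XVII bind laminin outside the cell, and plectin and dystonin tie them to keratin filaments inside it. The laminin they bind is an epithelial form that holds the alpha3 and beta3 chains. Integrins with the beta1 or alphav subunit bind laminins, collagens or RGD ligands such as fibronectin, and connect to actin at focal adhesions.

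The libraries held 8906375 to 10485922 counts each, and a level of 10 CPM (CPM being counts scaled to a common library size with edgeR's TMM factors) rested on 87.6 to 103.6 counts. Since the labels leave the origin of the replicates unstated (animals, cultures or repeat preparations), every p-value measures only library-to-library spread, which may be technical. M3-CKO replicate 3 stood apart: over the tested genes its log2 CPM had a Pearson r of 0.926 and 0.914 with M3-CKO replicates 1 and 2, which had an r of 0.988 with each other, and of 0.928 to 0.932 with the Ctrl libraries. Mettl3 itself ran from 14.96 to 18.9 CPM in Ctrl and from 9.87 to 11.1 CPM in M3-CKO, without overlap but also without passing the test (log2 fold change, log2FC, -0.70, SE 0.21, edgeR adjusted p = 0.12). Reads outside the removed part also count for the gene. Of 10 basal cell markers, the keratins Krt5, Krt14 and Krt15 were called lower in M3-CKO and 7 were not called. Each call was lost when any single library other than M3-CKO replicate 3 was left out. The exception was Krt15 without M3-CKO replicate 2 (edgeR adjusted p = 0.029). Those settings left at most 18 genes called in the whole series. The log2FC of all 10 markers was negative, though only -0.06 for Pdpn and for Sox2. The list summed to 3175 to 3803 CPM in Ctrl and to 1508, 1402 and 2821 CPM in M3-CKO. The higher sum of M3-CKO replicate 3 was mostly Aqp3, at 1127 CPM there against 175.3 and 163.3 CPM in the other M3-CKO libraries. Krt14 was lowest in replicate 3 (9.05 CPM), but every other marker was highest there among the M3-CKO libraries. For M3-CKO replicates 1 to 3, Trp63 measured 110.8, 102.7 and 195.8 CPM, and Ngfr 111.6, 123.2 and 252.7 CPM. In bulk samples, fewer cells of a type and less RNA per cell cannot be told apart.

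Of the 44 genes, 35 passed the filter on low counts and were tested for M3-CKO against Ctrl with edgeR's quasi-likelihood test, adjusted over all 13528 genes tested. Itga7, the alpha7 subunit of a laminin-binding integrin, was the 1 gene called (adjusted p under 0.05), and it was higher in M3-CKO. That is 2.86% of the tested members, against 2.91% of all tested genes (1.74% higher in M3-CKO), so the share called was close to the background. An unadjusted p under 0.05 was reached by 14 of the 35 (6 higher, 8 lower), against 20.5% of all tested genes (11.6% higher, 8.89% lower). The Ctrl and M3-CKO libraries did not overlap for 12 of the 35, or 34.3%, against 27.1% of all tested genes: 4 were higher and 8 lower in M3-CKO, where the background was 13.7% and 13.5%. The median log2FC was 0.31 for the 35 and 0.02 for all tested genes. The DESeq2 Wald test called 9 of the 35 (4 higher, 5 lower), against 10.4% of all genes it tested (6.06% higher, 4.31% lower).

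**Figure D1:**
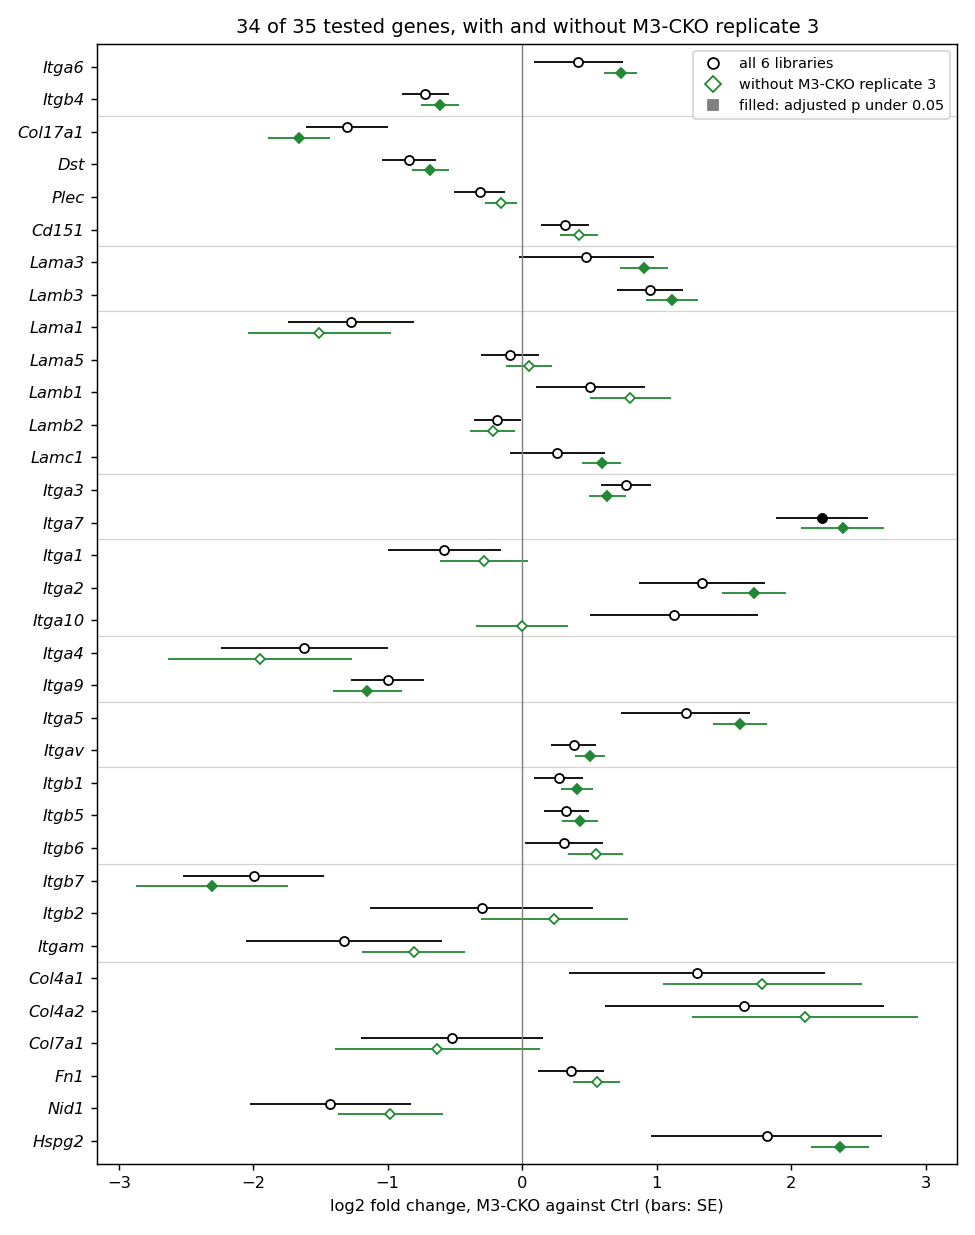
Log2 fold change (log2FC) of M3-CKO against Ctrl for 34 of the 35 tested genes, grouped by role and separated by grey lines, with bars showing the standard error. Circles use all 6 libraries and diamonds leave out M3-CKO replicate 3; filled symbols have an edgeR adjusted p under 0.05. Itga7 is the 1 filled circle, whereas 17 of the 34 diamonds drawn are filled.

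M3-CKO replicate 3 weighed heavily on these genes. It lay below the mean of replicates 1 and 2 in 26 of the 35. The median log2 difference was -0.56 over the 35 and 0.01 over all tested genes. Without it 38 members passed the filter and 19 of them, or 50%, were called by edgeR, against 25% of all genes tested in that setting. Of these, 18 had also been tested with all 6 libraries. The other was Itgb3, which had at most 4 counts in each Ctrl library and passed the filter through its M3-CKO counts. Of the 19, 14 were higher (Itgb3 among them), where 13.7% of all genes were, and 5 were lower, where 11.3% were. The M3-CKO group of that fit is a pair of libraries closer to each other than any Ctrl pair (r at most 0.98), so its adjusted p values rest on a narrow spread and may be too low.

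**Figure D2:**
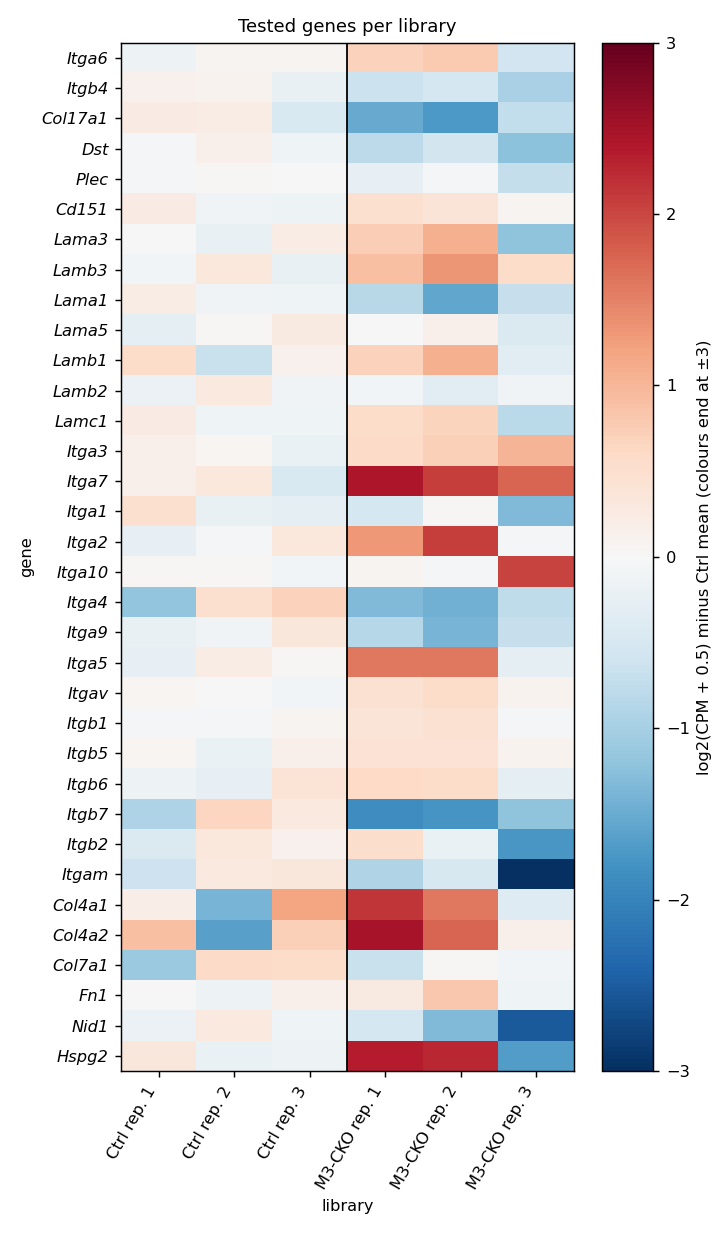
Level of 34 of the 35 tested genes (rows) in each library (columns) as log2(CPM + 0.5) minus the mean of the 3 Ctrl libraries, with colours ending at ±3. Itga7 and Itga3 are red in all 3 M3-CKO libraries and Itgb4, Col17a1 and Dst blue in all 3, while Hspg2, Itga5, Itga6 and Lama3 are red in M3-CKO replicates 1 and 2 and blue in replicate 3.

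Of the hemidesmosome genes, Itgb4, Col17a1, Dst and Plec had negative log2FC values without overlap between the groups. Itga6 and Cd151 had positive values with overlap, and edgeR called none of these genes with all 6 libraries. The alpha6 subunit gene Itga6 measured 368, 429 and 428 CPM in Ctrl and 657, 704 and 275 CPM in M3-CKO (values are given in the order of replicates 1 to 3 throughout). M3-CKO replicates 1 and 2 thus lay above every Ctrl library and replicate 3 below every one (log2FC 0.42, SE 0.33, adjusted p = 0.53). Without replicate 3 the log2FC was 0.73 and the adjusted p 0.0051.

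Itgb4, which encodes the beta4 partner of alpha6, measured 156.6, 154.6 and 122.5 CPM in Ctrl and 91.2, 98.9 and 73.1 CPM in M3-CKO. All M3-CKO libraries lay below all Ctrl libraries. Its log2FC was -0.72 (SE 0.18), which did not pass the edgeR test (adjusted p = 0.071), and was -0.61 without M3-CKO replicate 3 (adjusted p = 0.018).

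Col17a1, the gene of collagen XVII, measured 152.5, 148.9 and 92.7 CPM in Ctrl and 44.9, 38.5 and 76.4 CPM in M3-CKO. The groups did not overlap, but Ctrl replicate 3 and M3-CKO replicate 3 lay close to each other. The log2FC was -1.30 (SE 0.31, adjusted p = 0.068), and -1.66 without M3-CKO replicate 3 (adjusted p = 0.0023). Dst encodes dystonin, whose epithelial isoform is a hemidesmosome plaque protein, and its count also holds reads of the neuronal and muscle isoforms. It measured 112.2, 126.9 and 104.3 CPM in Ctrl and 65.6, 77.5 and 48.2 CPM in M3-CKO, again without overlap (log2FC -0.84, SE 0.20, adjusted p = 0.069). Leaving out M3-CKO replicate 3 gave -0.68 and an adjusted p of 0.010. DESeq2 called Itgb4 (adjusted p = 0.013), Col17a1 (adjusted p = 0.0021) and Dst (adjusted p = 0.0086) lower.

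Plec, the plectin gene, differed less, at 449, 473 and 456 CPM in Ctrl and 387, 438 and 282 CPM in M3-CKO (log2FC -0.32, SE 0.19, adjusted p = 0.40). Its groups did not overlap, and without M3-CKO replicate 3 the log2FC was -0.16. Cd151, a tetraspanin that binds alpha6 and alpha3 integrins, measured 192.2, 152.1 and 147.5 CPM in Ctrl and 226.7, 213.2 and 172.9 CPM in M3-CKO, with overlap (log2FC 0.32, SE 0.18, adjusted p = 0.36).

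**Figure D3:**
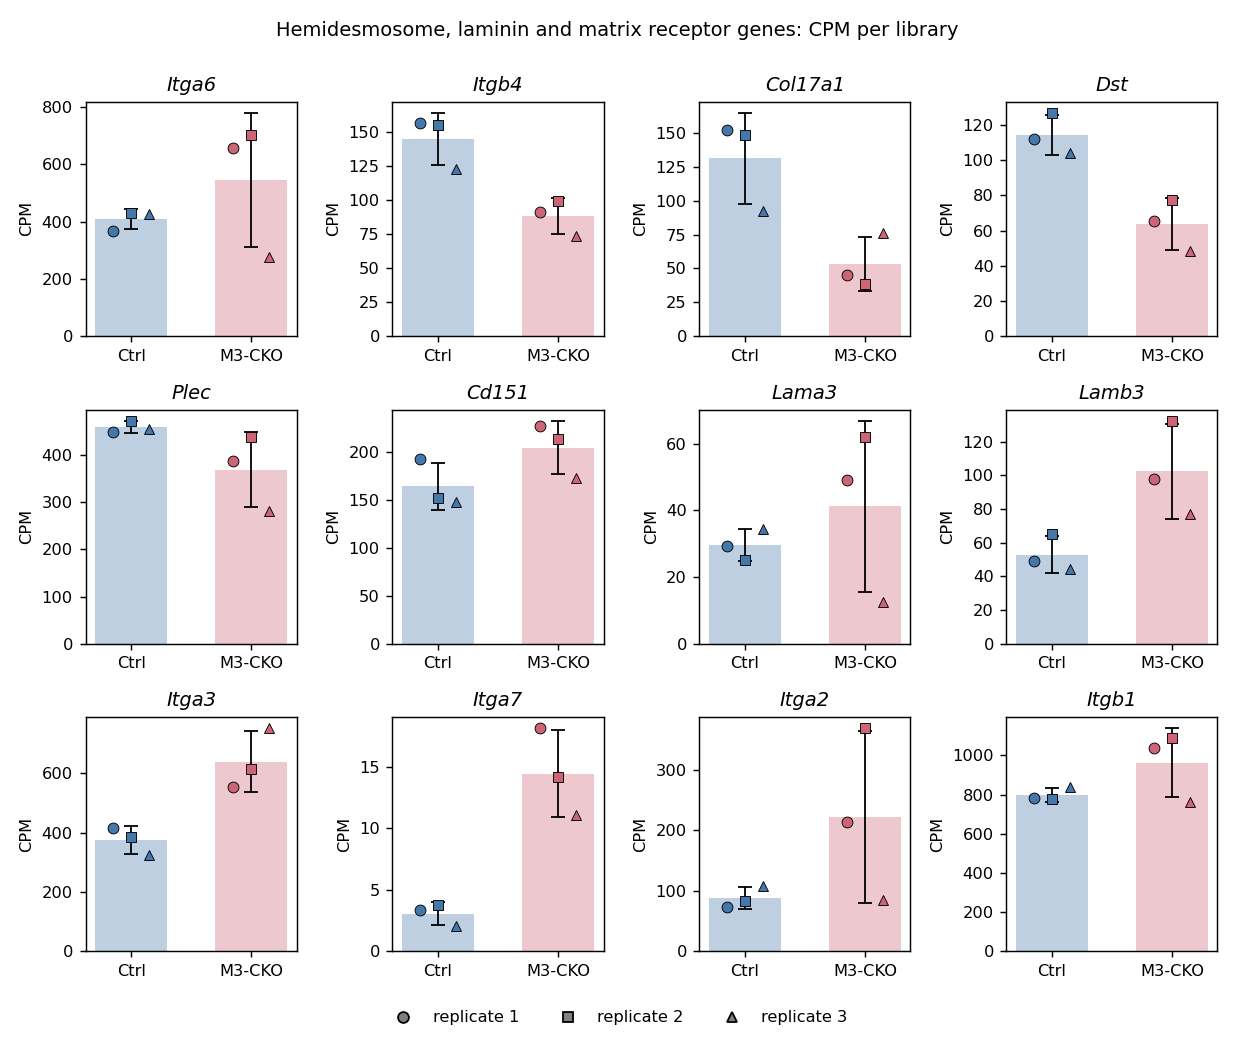
CPM of 12 genes in each library, with a panel per gene and a linear axis from 0. Bars show the mean and error bars the SD of 3 libraries (Ctrl blue, M3-CKO red), and circles, squares and triangles mark replicates 1 to 3. Itgb4, Col17a1, Dst and Plec are lower in every M3-CKO library than in any Ctrl library, and Lamb3, Itga3 and Itga7 are higher, while the M3-CKO triangles of Itga6 and Lama3 lie below the Ctrl points.

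The alpha6 and beta4 genes also differed as a ratio of the same counts within each library, which needs no scaling between libraries. The ratios given here were chosen after the values were seen and have no test. Of the other ratios computed, Itga2 per Itgb4 was higher in every M3-CKO library than in any Ctrl library. The rest, such as Lamb3 per Lama3 and Itga3 per Itga6, overlapped between the groups. Ctrl replicates 1 to 3 held 2.35, 2.78 and 3.49 Itga6 counts per Itgb4 count, and M3-CKO replicates 1 to 3 held 7.20, 7.11 and 3.77. M3-CKO replicates 1 and 2 were far above Ctrl, and replicate 3 lay just above the highest Ctrl library. The ratio of the beta1 gene Itgb1 to Itgb4 was 4.99, 5.02 and 6.85 in Ctrl and 11.4, 11.0 and 10.4 in M3-CKO, so that here replicate 3 lay with the other M3-CKO libraries. Itga6 counts per Col17a1 count were 2.41, 2.88 and 4.62 in Ctrl and 14.6, 18.3 and 3.61 in M3-CKO, where replicate 3 fell within the Ctrl range. As given above, 3 of 10 basal cell markers, all keratins, were called lower in M3-CKO with all 6 libraries. Without M3-CKO replicate 3, edgeR called 7 of the 10 lower, Trp63 and Ngfr among them, against 11.3% of all genes tested in that setting. The part of these markers in the values of the hemidesmosome genes was not tested.

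**Figure D4:**
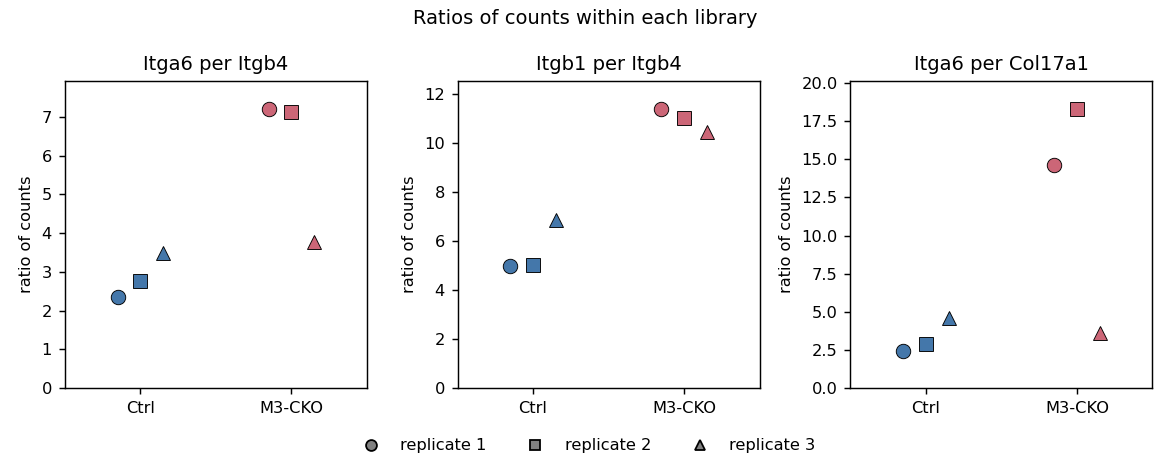
Ratio of the counts of a pair of genes within each library, for Itga6 per Itgb4, Itgb1 per Itgb4 and Itga6 per Col17a1, on linear axes from 0. Symbols mark replicates 1 to 3 of Ctrl (blue) and M3-CKO (red). The M3-CKO libraries lie at 10.4 to 11.4 for Itgb1 per Itgb4 against 4.99 to 6.85 in Ctrl, while M3-CKO replicate 3 lies near or within the Ctrl range in the other panels.

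Of the chains of the hemidesmosome's laminin, Lamb3 and Lama3 had positive log2FC values. Lamb3, the beta3 chain, measured 49.2, 65.3 and 44.4 CPM in Ctrl and 97.7, 132.6 and 77.0 CPM in M3-CKO. Every M3-CKO library was above every Ctrl library (log2FC 0.95, SE 0.24, adjusted p = 0.081; DESeq2 adjusted p = 0.013). Lama3, the alpha3 chain, had M3-CKO replicates 1 and 2 above every Ctrl library and replicate 3 below them, with 29.3, 25.1 and 34.5 CPM in Ctrl and 49.1, 62.1 and 12.4 CPM in M3-CKO (log2FC 0.48, SE 0.50, adjusted p = 0.65). These chains therefore differed in M3-CKO replicate 3: Lamb3 was above Ctrl there, and Lama3 was below it. Without that library the log2FC values were 0.90 for Lama3 and 1.11 for Lamb3, with edgeR adjusted p of 0.0093 and 0.0058.

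Of the other laminin chains with a row, 5 of 7 were tested and none was called by edgeR or DESeq2, with 1 at an unadjusted p under 0.05. That was Lama1, the alpha1 chain of the laminin that Matrigel is rich in, at 3.17, 2.43 and 2.36 CPM in Ctrl and 1.25, 0.571 and 1.42 CPM in M3-CKO (log2FC -1.27, SE 0.47, adjusted p = 0.18), without overlap. Lama5, the alpha5 chain common in adult epithelial basement membranes, measured 366 to 544 CPM in Ctrl and 335 to 499 CPM in M3-CKO (log2FC -0.09, SE 0.22, adjusted p = 0.86), and the sign depended on which libraries were kept. Lamb2, the beta2 chain, had a log2FC of -0.19 (SE 0.17), Lamb1, the beta1 chain, of 0.51 (SE 0.40) and Lamc1, the gamma1 chain, of 0.26 (SE 0.35). Leaving out M3-CKO replicate 3 brought Lamc1 past the threshold (0.59, adjusted p = 0.021); it measured 115.1 CPM in that library against 293.7 and 317.1 in the other M3-CKO libraries. Lama2 and Lama4, chains typical of muscle and vessels, had 2 counts or fewer in every library and were not tested.

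Among laminin-binding alpha subunits that pair with beta1, Itga7 was the called gene. It measured 3.38, 3.81 and 2.02 CPM in Ctrl (31, 36 and 18 counts) and 18.2, 14.1 and 11.1 CPM in M3-CKO (188, 124 and 109 counts). The groups were well apart, with a fold of 4.69 (log2FC 2.23, SE 0.34, edgeR adjusted p = 0.029), higher in 3 of 3 M3-CKO libraries. Alpha7 integrin is best known from skeletal muscle. The call held without M3-CKO replicate 3 (adjusted p = 0.0017) and was lost when any other single library was left out (adjusted p 0.092 to 0.14), while the log2FC stayed between 2.00 and 2.41. Leaving out any of those other libraries left at most 18 genes called in the whole series, so the loss was not particular to Itga7. No marker of skeletal muscle was looked up. Of the mesenchymal markers looked up, Acta2 had at most 13 counts, Tagln at most 2 and Col1a1 at most 2 in any library. Pdgfra had 31, 87 and 105 counts in Ctrl and 13, 15 and 29 in M3-CKO. Their part in the Itga7 values was not tested.

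Itga3, the alpha3 subunit that is the main beta1 partner for epithelial laminin, measured 415, 385 and 323 CPM in Ctrl and 552, 613 and 751 CPM in M3-CKO. All M3-CKO libraries were above all Ctrl libraries, and replicate 3 was the highest (log2FC 0.77, SE 0.18, adjusted p = 0.069; DESeq2 adjusted p = 0.0029). Itgb1, the shared beta1 subunit, measured 781, 775 and 840 CPM in Ctrl and 1037, 1089 and 764 CPM in M3-CKO, with overlap through replicate 3 (log2FC 0.27, SE 0.18, adjusted p = 0.46).

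Promoter sequences are shown for Col17a1 and Itga3, since their groups did not overlap in either direction and both have an entry in the RefSeq table (build GRCm38.p6), which matched 30 of the 44 symbols. The windows are the 250 bases before the first listed start, written 5′ to 3′ on the gene's strand. They are chr19:47692043-47692292 on the minus strand for Col17a1, and chr11:95076715-95076964 on the minus strand for Itga3. Capitals mark the GC box GGGCGG on the strand shown or its reverse complement.
Col17a1: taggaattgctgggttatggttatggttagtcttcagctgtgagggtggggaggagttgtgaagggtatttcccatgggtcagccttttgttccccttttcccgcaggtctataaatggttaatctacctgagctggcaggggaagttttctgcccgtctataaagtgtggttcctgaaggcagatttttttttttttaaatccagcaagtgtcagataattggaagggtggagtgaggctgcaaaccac
Itga3: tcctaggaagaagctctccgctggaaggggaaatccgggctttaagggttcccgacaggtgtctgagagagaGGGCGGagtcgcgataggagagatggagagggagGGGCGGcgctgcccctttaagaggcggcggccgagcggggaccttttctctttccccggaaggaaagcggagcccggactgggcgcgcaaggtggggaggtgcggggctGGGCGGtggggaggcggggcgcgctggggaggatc
The Itga3 window held 3 GC boxes and the Col17a1 window 0. Dst, lower in M3-CKO without overlap like Col17a1, had GC boxes at positions -92, -85, -73 and -35 from its start. Over all 35 windows of the 30 matched genes, 15 held a GC box, against 32.7% of all windows in the table. The AP-1 site TGACTCA, searched on both strands, was in 0 of the 35 windows and in 4.46% of all windows. A match describes letters only, and the data hold no measurement at these promoters.

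Collagen-binding subunits were led by Itga2, the alpha2 subunit of epithelial collagen receptors (described after its values were seen). It measured 72.5, 83.1 and 107.6 CPM in Ctrl and 213.5, 368 and 84.4 CPM in M3-CKO. Replicates 1 and 2 of M3-CKO were above every Ctrl library, and replicate 3 lay within the Ctrl range (log2FC 1.34, SE 0.47, adjusted p = 0.16). DESeq2 called it higher (adjusted p = 0.038), as did edgeR without M3-CKO replicate 3 (1.73, adjusted p = 0.0024). Itga10, an alpha subunit typical of cartilage, showed the opposite dependence: it measured 3.15 to 3.49 CPM in Ctrl, 3.57 and 3.19 CPM in M3-CKO replicates 1 and 2, and 15.4 CPM in replicate 3. Its log2FC of 1.13 (SE 0.63, adjusted p = 0.36) was 0.00 without that library. Of the 4 cartilage markers with a row, Col2a1, Comp and Matn1 had at most 4 counts in any library. Sox9 measured 18.6, 11.1 and 12.0 CPM in Ctrl and 77.0, 53.5 and 11.2 CPM in M3-CKO. The part of these markers in the Itga10 values was not tested. Itga1, the alpha1 subunit, had a log2FC of -0.58 (SE 0.42, adjusted p = 0.49), and Itga11 had at most 10 counts in any library and was not tested.

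Of the subunits that bind RGD ligands, Itga5, the alpha subunit of the classical fibronectin receptor (described after its values were seen), measured 6.99, 9.83 and 8.54 CPM in Ctrl and 26.1, 26.0 and 6.92 CPM in M3-CKO. M3-CKO replicate 3 was below every Ctrl library (log2FC 1.22, SE 0.48, adjusted p = 0.21; without it 1.62 and 0.0015). Itgav, the alphav subunit, measured 315.8, 305.9 and 287.2 CPM in Ctrl and 418, 443 and 325 CPM in M3-CKO, without overlap (log2FC 0.38, SE 0.17, adjusted p = 0.25). Its partners Itgb5 (log2FC 0.33, SE 0.17) and Itgb6 (0.31, SE 0.29), the second of which activates latent TGF-beta in epithelia, had adjusted p of 0.32 and 0.60.

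Itgb3, the beta3 partner of alphav (described after its values were seen), failed the filter on low counts with all 6 libraries and so was not tested. It had 4, 2 and 2 counts in Ctrl and 40, 58 and 10 counts in M3-CKO. The groups did not overlap, and without the filter its log2FC was 3.65 (SE 0.77, edgeR adjusted p = 0.021). Itga2b, the other alpha partner of beta3, a platelet subunit, went the other way, with 17, 7 and 25 counts in Ctrl and 6, 3 and 3 counts in M3-CKO. Of the platelet markers looked up, Pf4 and Gp9 had at most 4 counts in any library, Gp1ba 26 to 77 and Ppbp 11 to 163. Itgb8, another alphav partner, had 8 to 20 counts in Ctrl and 0 to 7 in M3-CKO. Itga8, the alpha subunit for nephronectin, had 0 counts in all 3 Ctrl libraries, which allows up to 3 counts in each by counting error, and 4, 4 and 2 counts in M3-CKO.

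Among the remaining alpha and beta subunits, Itga9 and Itgb7 were lower in every M3-CKO library than in any Ctrl library, and neither passed the edgeR test. Itga9, the alpha9 subunit that binds tenascin-C with beta1, measured 22.1, 23.9 and 33.1 CPM in Ctrl and 14.1, 9.59 and 15.8 CPM in M3-CKO, without overlap (log2FC -1.001, SE 0.27, adjusted p = 0.092; DESeq2 adjusted p = 0.015). Itgb7, the beta7 subunit known from lymphocytes, measured 2.84, 9.41 and 7.30 CPM in Ctrl and 1.26, 1.37 and 2.24 CPM in M3-CKO, also without overlap (log2FC -2.00, SE 0.52, adjusted p = 0.086; DESeq2 adjusted p = 0.0096). Itga4, the alpha4 partner of both beta1 and beta7, had a log2FC of -1.62 (SE 0.62, adjusted p = 0.20), with Ctrl replicate 1 (1.31 CPM) among the M3-CKO values of 1.03 to 1.93 CPM. The myeloid subunits Itgam and Itgb2 had adjusted p of 0.36 and 0.88, and Itgae and Itgal had at most 11 counts in any library. Of 12 leukocyte markers 6 had a row, and the defining marker Ptprc had 2 counts in Ctrl replicate 2 and 0 in the other libraries. Coro1a had at most 5 counts in any library, whereas Cd68 had 370 to 818 counts and Laptm5 15 to 99 in every library. Csf1r had 2, 7 and 6 counts in Ctrl and 33, 12 and 6 counts in M3-CKO. The list summed to 542 to 1426 CPM in Ctrl and 459 to 795 CPM in M3-CKO, most of it Lyz2, which airway epithelium can also express. Its part in the values of the leukocyte integrins was not tested.

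Matrix genes were read against a gel that supplies some of the same proteins, collagen IV and nidogen among them. These counts measure only the transcripts. Hspg2, the gene of the heparan sulfate proteoglycan perlecan (described after its values were seen), measured 8.95, 6.03 and 6.18 CPM in Ctrl and 37.9, 35.03 and 1.83 CPM in M3-CKO. Replicates 1 and 2 of M3-CKO were far above Ctrl and replicate 3 was below it (log2FC 1.82, SE 0.86, adjusted p = 0.29; without replicate 3, 2.36 and 4.9e-04). Col4a1 and Col4a2, the chains of the common collagen IV trimer, had the same order within M3-CKO, at 7.72, 5.02 and 0.915 CPM and at 8.01, 4.68 and 1.22 CPM, against 0.211 to 3.71 CPM and 0 to 2.40 CPM in Ctrl. Their log2FC values of 1.30 (SE 0.95) and 1.65 (SE 1.04) were not called. Nid1, the gene of nidogen, which bridges laminin and collagen IV, went the other way, with 5.13, 7.40 and 5.39 CPM in Ctrl and 3.96, 2.05 and 0.610 CPM in M3-CKO, without overlap (log2FC -1.43, SE 0.60, adjusted p = 0.23). Fn1, fibronectin, measured 261.7, 234.6 and 293.7 CPM in Ctrl and 315.4, 461 and 240.9 CPM in M3-CKO (log2FC 0.36, SE 0.25, adjusted p = 0.45). Col7a1, the anchoring fibril collagen, had at most 24 counts in any library (log2FC -0.52, SE 0.68). Mesenchymal markers, of which 6 of 11 had a row, summed to 4.59 to 13.2 CPM in Ctrl and 2.40 to 4.07 CPM in M3-CKO. In Ctrl most of this was Pdgfra (3.38, 9.20 and 11.8 CPM, against 1.25, 1.71 and 2.95 CPM in M3-CKO), while Dcn had at most 5 counts and Vim at most 8 in any library. The part of these markers in the values of the matrix genes was not tested. Endothelial markers, of which 4 of 8 had a row, summed to at most 1.37 CPM in any library.

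Other genes of the pathway were read from lists that were chosen with earlier results of these data known. Their counts stand beside 2.91% called by edgeR, 20.5% at an unadjusted p under 0.05 and 10.4% called by DESeq2 over all tested genes. Of 22 tested focal adhesion genes, edgeR called 1 lower and 0 higher, with 3 at an unadjusted p under 0.05 and 1 called by DESeq2. The called gene was Parva, whose product parvin links integrin-linked kinase to actin: it fell from 858 ± 82.2 to 479 ± 20.8 CPM (mean ± SD, n = 3 libraries each; log2FC -0.84, SE 0.15, edgeR adjusted p = 0.037). Of 19 tested other basement membrane genes, 1 was called higher and 1 lower, with 6 at an unadjusted p under 0.05 and 6 called by DESeq2. Tinagl1, a matrix glycoprotein that binds integrins, rose from 64.5 ± 3.52 to 136.5 ± 24.7 CPM (log2FC 1.08, SE 0.17, edgeR adjusted p = 0.029). Efemp1, a fibulin, fell from 94.1 ± 11.7 to 27.0 ± 6.80 CPM (log2FC -1.80, SE 0.22, edgeR adjusted p = 0.019). Of 16 tested genes of matrix processing, 1 was called higher, 0 lower, with 6 at an unadjusted p under 0.05 and 6 called by DESeq2. That gene was Timp3, a matrix-bound inhibitor of metalloproteinases, which rose from 604 ± 23.0 to 1399 ± 17.5 CPM (log2FC 1.21, SE 0.15, edgeR adjusted p = 0.019). Without M3-CKO replicate 3 all 4 calls held, like that of Itga7. Without any other single library they were lost (adjusted p 0.075 to 0.17), except for Efemp1 without M3-CKO replicate 1 (adjusted p = 0.049). Those settings left 0 to 18 genes called in the whole series, against 393 with all 6 libraries, so such a loss was not particular to these genes. Among 5 laminin receptors other than integrins and 13 other integrin ligands, edgeR called 0. At an unadjusted p under 0.05 there were 2 and 4, and DESeq2 called 2 in each list. The median log2FC values of the 5 lists were -0.01 for focal adhesion, 0.06 for other basement membrane, 0.44 for matrix processing, 0.34 for other laminin receptors and 0.19 for other ligands, against 0.02 over all tested genes.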

How the data were processed

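The deposited values are raw counts per gene symbol, made with featureCounts after Trim Galore and HISAT2 on build mm39, per the submitters' processing notes. The sources used here give no versions, annotation, strand setting or rule for multi-mapping reads, so counts of overlapping or antisense genes are uncertain. The 4 libraries of m6A immunoprecipitation and input were not analysed here. The table holds no gene lengths, so levels were not compared between genes.

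M3-CKO was compared with Ctrl in the 6 RNA-seq libraries with edgeR 4.0.16 in R 4.3.3: filterByExpr, TMM factors (0.956 to 1.05), then glmQLFit and glmQLFTest, two-sided, with no covariate and Benjamini-Hochberg adjustment over 13528 genes. Genes were called at an adjusted p under 0.05. The SE of a log2 fold change is its size over the square root of F. Every adjusted p of a gene is from this test unless DESeq2 1.42.0 is named. On data simulated from these means and library sizes over 13528 genes, the steps recovered 26% of genes changed 2-fold, 74% at 4-fold, 92% at 8-fold and 94% at 16-fold, with 8.33% of calls false.

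The rule for named genes took every called member, the core of hemidesmosomes and of their laminin, Itga3, Itgb1, up to 10 other tested members with the largest change whose groups do not overlap (5 did so), called genes of the pathway lists and Mettl3. Of the genes this rule picks, 1 enters the counts and is not reported here by name. Genes outside it are marked as described after their values were seen or given within their role class. The members and lists were chosen with earlier results of these data known. Alternatives were scaling by DESeq2 size factors or by library size alone, the tests of DESeq2 and limma-voom (limma 3.58.1), no filter on low counts, a stricter one (20 counts in 3 libraries), a replicate block, each library left out in turn, and replicate 3 of both groups left out.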

Additional observations from a re-analysis of the deposited data

How the results depend on the processing

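The number of genes called by edgeR, 393 in all and 1 among the integrin, laminin and hemidesmosome genes, depended on the libraries used. Leaving out each library in turn gave 0 to 3483 genes and 0 to 19 members. Both highest values came without M3-CKO replicate 3, and leaving out replicate 3 of both groups gave 2624 genes and 18 members. DESeq2 called 1402 genes and 9 members, and edgeR without a low-count filter called 740 genes and 6 members. Size factors, library size alone, limma-voom and the stricter filter gave counts within 1.5 times, with Itga7 the 1 member called in each. With the replicate block 20 genes and 0 members were called, and Itga7 had a log2 fold change of 2.25 with an adjusted p of 0.070. Same-numbered libraries did not deviate together (r -0.02, 0.02 and -0.11), and 0 of 6 libraries correlated best with their own number. Mettl3 had a log2 fold change of -0.78 to -0.62 without each library, and was called without M3-CKO replicate 3 and by DESeq2 (-0.70, adjusted p = 0.049). Signs changed for 3 uncalled members: Lama5 (-0.22 to 0.054 without each library, 0.20 without replicate 3 of both groups), Itga10 (-0.049 without replicate 3 of both) and Itgb2 (-1.21 to 0.24 without each library, 0.30 without replicate 3 of both). The causes were not tested. At these depths 10 CPM rests on 87.6 to 103.6 counts, and a 2-fold change was often missed in the simulation.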

Other observations

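Several matrix genes outside the described set were high in M3-CKO replicates 1 and 2 and closer to the Ctrl level in replicate 3 (chosen after their values were seen, none called by edgeR with all 6 libraries). Tnc, the gene of tenascin-C, a ligand of alpha9 and alphav integrins, measured 18.9, 16.1 and 9.43 CPM in Ctrl and 125.3, 109.3 and 26.7 CPM in M3-CKO (log2 fold change 2.56, SE 0.56, edgeR adjusted p = 0.057). Serpinh1, a chaperone of collagens, measured 9.83, 11.6 and 10.6 CPM in Ctrl and 70.0, 74.1 and 12.0 CPM in M3-CKO (edgeR adjusted p = 0.086). Pxdn, an enzyme that crosslinks collagen IV, measured 26.4, 26.3 and 32.0 CPM in Ctrl and 164.3, 161.1 and 25.5 CPM in M3-CKO (edgeR adjusted p = 0.11). Plod1, a collagen lysyl hydroxylase, did not share this order, at 22.9, 16.9 and 13.4 CPM in Ctrl and 38.5, 35.6 and 36.9 CPM in M3-CKO (edgeR adjusted p = 0.056).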
